A study of Mus musculus with 371 samples.

Results

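The cell cycle and DNA replication genes described here are 40 genes of the 23362 in the expression table, chosen by name for their known part in copying DNA or dividing the cell. They were followed in single T cells sorted from B16F10 melanoma, a transplantable mouse tumour line grown in C57BL/6 mice. Hosts were wild type (WT) or IL27raKO, that is, lacking the receptor chain for the cytokine IL-27, and the titles also give a CD8 or a CD4 sort. The 4 groups held 94 WT CD8, 90 KO CD8, 94 WT CD4 and 93 KO CD4 cells. Every host therefore carried the same tumour line, and no other treatment is given in the labels, whose protocol text speaks of CD8+ cells alone although the titles name both sorts. Each group carries 1 animal name and the number 3 in its titles, and nothing in them separates animals. Both CD8 groups also carry the mark p1 and both CD4 groups p2, whose meaning is not given, so that what it marks and the sort cannot be told apart. A group was taken as 1 pool of cells with no second pool beside it. The effect of the pool and that of the genotype cannot be told apart, and no test between groups was made.

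A dividing cell first loads the MCM helicase onto its replication origins with the help of Cdc6, and cyclin E starts DNA synthesis. PCNA then holds the polymerases on the template while ribonucleotide reductase, thymidylate synthase, thymidine kinase and dUTPase supply the nucleotides. Later, cyclins A and B with Cdk1 and the Aurora and Polo kinases drive mitosis, and Cdc20 and Ube2c direct the destruction of the cyclins at its end. T cells divide in bursts after they meet antigen, and most of these genes are silent in a resting cell. Cells were counted by how many of the 40 genes they held at 1 FPKM or more (fragments per kilobase of transcript, scaled to the size of the library), the level taken as detection.

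In all, 350 cells had at least 1000 genes detected and were kept: 90 WT CD8, 86 KO CD8, 85 WT CD4 and 89 KO CD4 cells. Their median number of genes was 2148, 1955, 1661 and 1868 in that order, and no cell had the same values as another. Cd8a or Cd8b1 was detected in 92.2% of WT CD8 and 97.7% of KO CD8 cells, and Cd4 in 87.1% of WT CD4 and 87.6% of KO CD4 cells. Cd4 was found in 0 of 90 WT CD8 and 0 of 86 KO CD8 cells, which allows shares of up to 3.33% and 3.49%. The CD4 sort was less clear. Cd8a or Cd8b1 was found in 22 of 85 WT CD4 (25.9%) and 20 of 89 KO CD4 cells (22.5%), mostly below 10 FPKM. At 10 FPKM or more, either gene was in 1 of 10 WT CD4 cells with at least 10 members and 5 of 75 others. In KO CD4 these numbers were 2 of 11 and 6 of 78. Both genes together were found in 1 WT CD4 cell, which was 1 of the 10 with at least 10 members. The summed FPKM of the 2 genes reached 1367 among those 10 cells and 620 among the 75 others. Il27ra, the targeted gene, was detected in 51.1% of WT CD8, 53.5% of KO CD8, 50.6% of WT CD4 and 50.6% of KO CD4 cells. The table has 1 value for the whole gene and none for a deleted stretch, which leaves the genotype unchecked, and KO stands below for cells labelled IL27raKO. Transcripts of melanoma cells were present in some wells, and their values stand beside the results they touch.

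The 2 arms of the list differ in the DNA just before their genes, which is shown because it does not use the expression values. Of the 40 members, 33 were matched to 35 promoters in RefSeq (GRCm38.p6), each 300 bases long from 250 before the start of transcription to 50 after it. The motif TTTGAA, known as the cell cycle homology region (CHR), was found on either strand in 12 of 17 promoters of mitotic members (70.6%) and in 1 of 16 promoters of 14 replication members (6.25%). Among all 32851 promoters in the table it was found in 17.9%. The reverse was seen for E2F motifs, searched on both strands as TTTGGCGC, TTTCCCGC, TTTCGCGC and TTTGCCGC. They were found in 6 of 16 replication promoters (37.5%), in 1 of 17 mitotic promoters (5.88%) and in 2.26% of all promoters. CCAAT, the motif bound by the factor NF-Y, was in 15 of 17 mitotic promoters (88.2%), 11 of 16 replication promoters (68.8%) and 37.4% of all promoters. Matches describe the letters in these windows and not binding. Printed below, 5′ to 3′ along the gene's strand, are 3 mitotic members that hold the first motif, 2 replication members that hold E2F motifs, and Pcna, which holds neither of those. They were chosen after the matches were known, and capitals mark all matches to the 3 motifs on either strand.
Cdk1, chr10:69352863-69353162, minus strand: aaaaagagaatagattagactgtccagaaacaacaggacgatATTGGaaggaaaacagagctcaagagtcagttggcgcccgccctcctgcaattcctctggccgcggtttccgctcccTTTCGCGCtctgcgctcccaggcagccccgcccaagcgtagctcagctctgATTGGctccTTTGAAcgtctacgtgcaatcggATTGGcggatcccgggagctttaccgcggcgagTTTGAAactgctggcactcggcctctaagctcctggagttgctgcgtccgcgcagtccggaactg
Ccnb2, chr9:70421505-70421804, minus strand: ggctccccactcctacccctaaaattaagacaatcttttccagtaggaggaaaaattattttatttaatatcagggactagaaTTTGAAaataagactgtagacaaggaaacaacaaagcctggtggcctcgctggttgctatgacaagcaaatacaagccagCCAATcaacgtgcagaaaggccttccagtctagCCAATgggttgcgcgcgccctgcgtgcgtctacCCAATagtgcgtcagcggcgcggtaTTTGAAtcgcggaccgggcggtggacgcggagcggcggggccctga
Mki67, chr7:135716330-135716629, minus strand: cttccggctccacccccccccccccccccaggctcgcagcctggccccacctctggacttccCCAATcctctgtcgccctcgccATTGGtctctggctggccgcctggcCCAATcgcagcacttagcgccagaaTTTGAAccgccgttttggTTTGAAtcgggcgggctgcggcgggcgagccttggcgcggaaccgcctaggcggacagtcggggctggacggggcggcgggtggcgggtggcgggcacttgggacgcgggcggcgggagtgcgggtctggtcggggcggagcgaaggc
Mcm3, chr1:20820263-20820562, minus strand: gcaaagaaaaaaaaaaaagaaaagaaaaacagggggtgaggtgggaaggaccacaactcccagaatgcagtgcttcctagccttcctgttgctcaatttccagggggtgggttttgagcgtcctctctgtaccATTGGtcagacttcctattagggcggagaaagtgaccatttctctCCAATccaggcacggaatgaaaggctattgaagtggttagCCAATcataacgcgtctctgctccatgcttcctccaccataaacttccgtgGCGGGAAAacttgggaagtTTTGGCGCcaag
Mcm5, chr8:75109259-75109558, plus strand: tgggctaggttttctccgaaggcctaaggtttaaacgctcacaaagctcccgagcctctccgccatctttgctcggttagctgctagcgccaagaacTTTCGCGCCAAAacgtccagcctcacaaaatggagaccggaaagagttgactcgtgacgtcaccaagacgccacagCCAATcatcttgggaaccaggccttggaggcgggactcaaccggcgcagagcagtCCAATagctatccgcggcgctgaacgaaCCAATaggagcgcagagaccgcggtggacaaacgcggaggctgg
Pcna, chr2:132253131-132253430, minus strand: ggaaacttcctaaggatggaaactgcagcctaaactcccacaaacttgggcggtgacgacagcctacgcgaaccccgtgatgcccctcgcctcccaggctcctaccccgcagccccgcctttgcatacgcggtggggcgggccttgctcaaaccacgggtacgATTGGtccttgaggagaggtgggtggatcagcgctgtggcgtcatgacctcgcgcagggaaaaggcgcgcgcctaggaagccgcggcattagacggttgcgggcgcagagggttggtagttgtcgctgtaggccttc

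The promoters of Cdk1, Ccnb2 and Mki67 each held 2 copies of TTTGAA and 3 of CCAAT, with Cdk1 the only mitotic member that also held an E2F motif. Those of Mcm3 and Mcm5 held 2 E2F motifs and 3 CCAAT each and no TTTGAA. In Mcm5 the E2F matches lie on opposite strands and overlap. Mcm2 was the replication member with a TTTGAA, and Hmgb2, counted in neither arm, held 2 of them.

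Most cells held few members, and a minority held many. The lowest, median and highest number of members per cell were 1, 6 and 37 in WT CD8, 2, 5 and 20 in KO CD8, 0, 5 and 35 in WT CD4, and 1, 5 and 37 in KO CD4. Cells with at least 10 members are called cycling here, which is a range of this count and not a cell type. By this count 21 of 90 WT CD8 cells were cycling, or 23.3% (exact Clopper-Pearson 95% interval 15.1% to 33.4%, counting error only, as for all intervals below). Of these, 11 held only 10 to 14 members. They had medians of 9 of 57 further replication genes and 6 of 69 further mitotic genes, with 3490 genes detected. The non-cycling WT CD8 cells had 5 and 4 with 2048 genes. Those with 15 or more members had 32.5 and 39. Whether the cells with 10 to 14 members divide was not tested. In KO CD8 the number was 3 of 86, or 3.49% (0.725% to 9.86%). The CD4 groups lay close together, with 10 of 85 cells in WT (11.8%, 5.79% to 20.6%) and 11 of 89 in KO (12.4%, 6.33% to 21%). At this limit the intervals of the WT CD8 and KO CD8 groups do not overlap, but they do not include the spread between pools, which these data cannot give. Just under the limit, 8 cells held 9 members, 4 of them KO CD8 cells, and 9 cells held exactly 10, 6 of them WT CD8 cells. With at least 20 members, 9 WT CD8, 1 KO CD8, 5 WT CD4 and 5 KO CD4 cells remained. At stricter limits the CD8 intervals overlapped. With at least 15 members the shares were 11.1% (5.46% to 19.5%) in WT CD8 and 2.33% (0.283% to 8.15%) in KO CD8. With at least 20 they were 10% (4.68% to 18.1%) and 1.16% (0.0294% to 6.31%).

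**Figure D1:**
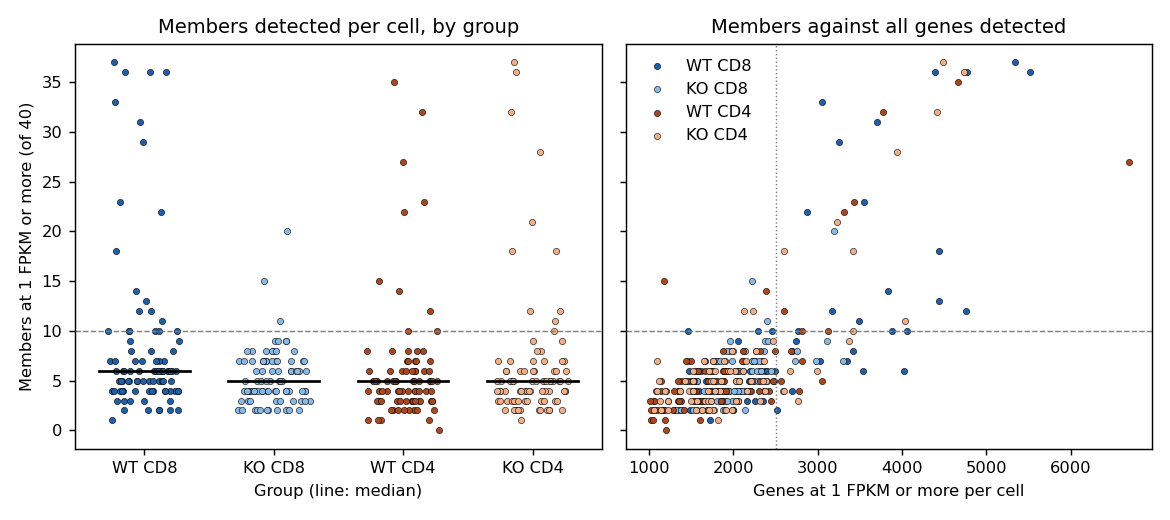
The left plot gives the number of the 40 members at 1 FPKM or more in each of 350 cells by group (points spread sideways for sight, black line at the median, dashed line at 10 members), and the right plot sets it against the number of genes detected in the same cell (dotted line at 2500 genes). All groups have medians of 5 or 6, cells with over 20 members occur in 3 of the groups, and the cells with many members are mostly those with many genes.

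The number of genes detected moved with the number of members. Cycling cells had a median of 3419 genes against 1879 in the other cells, and across the 350 cells Pearson's r between members and genes was 0.76, a description of cells that share 4 pools. A cell with more RNA and a cell read more deeply cannot be told apart in this table. Members made up more of what was detected in cycling cells, with a median of 6.26 per 1000 genes against 2.42 in the others, though the same counts chose those cells. Cells with at least 2500 genes, a limit set after seeing the data, numbered 27 of 90 in WT CD8, 7 of 86 in KO CD8, 13 of 85 in WT CD4 and 14 of 89 in KO CD4. Among them 18 of 27 WT CD8 cells were cycling (66.7%, 46% to 83.5%), 1 of 7 KO CD8 cells (14.3%, 0.361% to 57.9%), 8 of 13 WT CD4 cells (61.5%, 31.6% to 86.1%) and 9 of 14 KO CD4 cells (64.3%, 35.1% to 87.2%). Below 2500 genes the cycling cells were 3 of 63, 2 of 79, 2 of 72 and 2 of 75, so the CD8 groups were apart through cells rich in genes. What part the number of genes has in the difference between the CD8 groups was not tested.

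Cycling wells held T cell transcripts, some with transcripts of melanoma or myeloid cells as well. Cd3g, a chain of the T cell receptor complex, was detected in 45 of 45 cycling cells, and all 45 had at least 2 of the 5 T cell markers in the table. The melanoma gene Dct was found in 9 cycling and 14 other cells, Mlana in 5 and 4, and Sox10 in 3 and 0. Tyr was detected in all 45 cycling cells and in most of the others, at a median of 5.85 FPKM, and so separated no cells. The KO CD8 group turns on 3 cells. Its cell with 20 members had 7 of 8 melanoma markers at 10 FPKM or more, summing to 5962 FPKM, beside T cell markers summing to 3833 FPKM. The cell with 15 members had 5 melanoma markers summing to 1439 FPKM, and the cell with 11 members had 0, with a sum of 14.1 FPKM. The summed melanoma markers of cycling cells ranged from 4.77 to 421 FPKM in WT CD8, 1.05 to 1324 in WT CD4 and 1.88 to 346 in KO CD4. The WT CD8 cell at 421 FPKM held 36 members and 5 melanoma markers at 10 FPKM or more. The WT CD4 cell at 1324 FPKM held 14 members and 6 such markers, against 1170 FPKM for its T cell markers. The KO CD4 cell at 346 FPKM held 12 members and 1 such marker. Without any cell that had Mlana, Pmel, Dct, Tyrp1 or Sox10 at 10 FPKM or more, an alternative added after seeing the data, 16 of 75 WT CD8, 1 of 80 KO CD8, 6 of 70 WT CD4 and 10 of 81 KO CD4 cells were cycling. The KO CD8 share, low with those cells, was thus lower without them. In KO CD4, the cell with 10 members also had macrophage markers summing to 10930 FPKM and dendritic cell markers summing to 2164 FPKM, against 1514 FPKM for its T cell markers. The cell with 11 members had dendritic cell markers summing to 2728 FPKM and macrophage markers summing to 1062 FPKM, against 527 FPKM for its T cell markers. Without cells that had 2 markers of another cell type, 8 of 70 KO CD4 cells (11.4%) were cycling.

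Cells with many members did not all hold the same ones. Of the 25 cells with 15 or more members, 14 held at least 9 of the 17 replication members and at least 9 of the 20 mitotic members together. Another 4 held at least 9 replication members with fewer than 5 mitotic ones, of which 3 were WT CD8 and 1 was KO CD4. The clearest of these was a WT CD8 cell with 17 of 17 replication members and 3 mitotic members. At the opposite end stood a WT CD4 cell with 2 replication and 17 mitotic members. Counted over all cells, 13 WT CD8, 11 KO CD8, 4 WT CD4 and 5 KO CD4 cells had at least 5 replication and fewer than 5 mitotic members. Both counts reached 5 in 7, 2, 5 and 7 cells in that order. KO CD8 cells with replication but few mitotic members were nearly as frequent by this limit as in WT CD8, at 12.8% (6.56% to 21.7%) against 14.4% (7.92% to 23.4%). They were unlike, however: the KO cells lay at the limit, with 5 or 6 replication members each, against 5 to 17 in WT. Only 1 of these KO cells, with 11 members in all, was cycling, whereas most of the WT ones were. Cells with at least 5 members of each arm were 2.33% (0.283% to 8.15%) of KO CD8 and 7.78% (3.18% to 15.4%) of WT CD8 cells, and these intervals overlap.

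**Figure D2:**
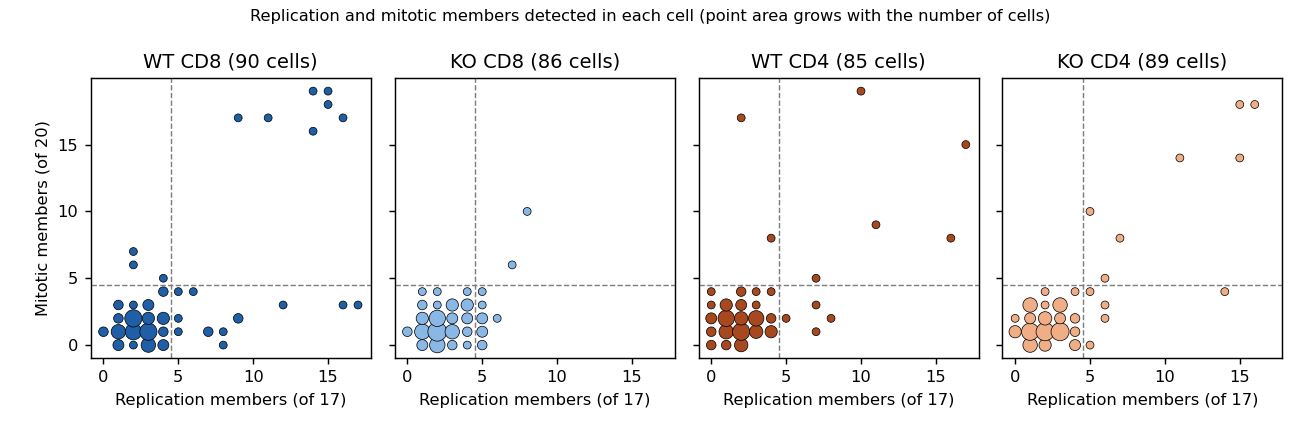
Each point places the cells of a group by how many of the 17 replication members (x) and 20 mitotic members (y) they held at 1 FPKM or more, with the area growing with the number of cells and dashed lines between 4 and 5. Cells with replication members and few mitotic ones lie along the bottom, cells with both at the upper right, and no KO CD8 cell has more than 10 mitotic members.

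In the following, each member is given in the 45 cycling cells and in the rest of the 350, as a description, since the members themselves chose the cells. Several members of origin licensing and of the fork were often detected outside cycling cells. Mcm6, a subunit of the helicase, was detected in 37 cycling and 78 other cells (82.2% and 25.6%), and Pcna, the sliding clamp, in 32 and 82 (71.1% and 26.9%). Mcm4 was found in 25 and 68, Mcm2 in 30 and 45, Mcm7 in 29 and 41, Mcm3 in 28 and 32, and Mcm5 in 29 and 25. The helicase is loaded as a ring of 6 such subunits, Mcm2 to Mcm7, and they were found in unequal numbers of cells. Where detected, Mcm7 had a median of 384.9 FPKM in cycling and 142.2 FPKM in other cells, and Mcm6 had 269.1 and 291.4 FPKM. Regulators were rarer: Cdc6, the loader, was detected in 9 cycling cells and in 0 others, which allows a share of up to 0.984%. Gins2, part of the active helicase, was in 11 against 1, Ccne2 in 12 against 1, and Uhrf1, which keeps DNA methylation through replication, in 22 against 9. Ccne1 was in 11 against 7.

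Nucleotide supply members were detected in more than 50% of cycling cells each. Rrm1 and Rrm2, the subunits of ribonucleotide reductase, were detected in 31 and 23 cycling cells and in 28 and 11 others. Tk1, thymidine kinase, was in 23 and 27, and Dut, dUTPase, in 31 and 36. Tyms, thymidylate synthase, was detected in 66.9% of all cells, but in 85.9% of these it lay below 10 FPKM, with a median of 3.11 FPKM in the non-cycling cells that had it. At 10 FPKM or more it was in 17 cycling and 16 other cells. Ube2c and Birc5 showed the same low values, below 10 FPKM in 81% and 78.2% of the cells that had them. Without these 3 genes 14 WT CD8, 2 KO CD8, 8 WT CD4 and 9 KO CD4 cells reached 10 members.

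The mitotic cyclins and kinases were seldom detected outside the cycling cells. Ccnb2, a cyclin B, was in 21 cycling cells at a median of 281.3 FPKM and in 1 other. Bub1b and Bub1, kinases of the spindle checkpoint, were in 13 and 10 cycling cells and in 0 others. Aurkb, the kinase of the chromosomal passenger complex, was in 16 against 1, Ccnb1 in 16 against 3, Aurka in 10 against 3, and Plk1 in 14 against 4. Ccna2, cyclin A, was in 20 against 7, and Cdk1 in 18 against 12, with medians of 138.3 FPKM in the cycling and 8.94 FPKM in the other cells that held it. Birc5, which encodes survivin of the passenger complex, had a median of 234.5 FPKM where detected in cycling cells and 4.02 FPKM in others. Ube2c had 50.3 and 3.61 FPKM, and Cdc20, in 16 against 7 cells, had 128.9 and 4.27 FPKM.

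Chromosome and spindle members ranged from common to rare. Mki67, which coats mitotic chromosomes and is the usual protein mark of proliferation, was detected in 27 cycling and 12 other cells, so 18 cycling cells lacked it. Top2a, the topoisomerase that untangles sister chromatids, was in 25 against 24, and the centromeric histone gene Cenpa in 28 against 59. Cenpe, a motor of the kinetochore, was in 19 against 1 and Nusap1, a spindle protein, in 16 against 1. Tpx2, which activates Aurora A, was in 20 against 27, but at 10 FPKM or more in 17 against 2. Kif11, the motor that separates the spindle poles, had 13 against 12 and, at 10 FPKM or more, 11 against 2. Cenpf was the least often found at that level, in 5 against 0 cells.

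**Figure D3:**
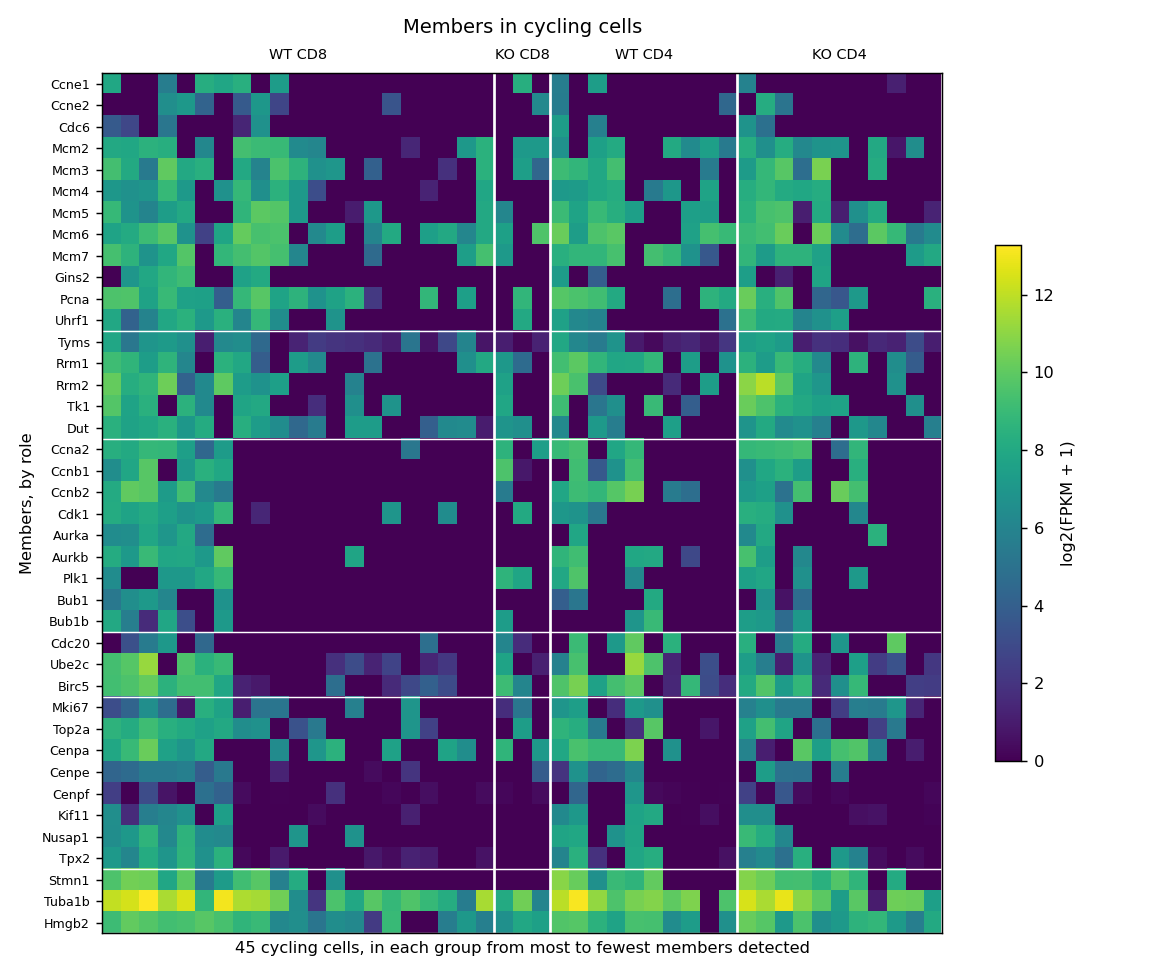
Colour gives log2(FPKM + 1) of each of the 40 members (rows, by role from licensing at the top to the broadly expressed genes at the bottom) in the 45 cycling cells (columns), ordered in each group from most to fewest members. The left columns of WT CD8, WT CD4 and KO CD4 hold most mitotic members, whereas the 3 WT CD8 columns that come next hold 12 to 17 replication and 3 mitotic members each and the last ones, with 10 members each, are mixed, with 0 to 7 mitotic members.

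The last 3 members have uses beyond the cycle, and only 2 of them were common. Tuba1b, an alpha tubulin whose sequence is close to that of other tubulin genes and may share reads with them, was detected in 95.6% of cycling and 44.3% of other cells. Hmgb2, a DNA-bending protein, was in 93.3% and 47.5%. Stmn1, stathmin, a destabiliser of microtubules, was in 26 cycling and 9 other cells (57.8% and 2.95%), with a median of 600.5 FPKM in the cycling cells that held it.

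Members went together most closely within the mitotic arm. Across 350 cells the median r between pairs of mitotic cyclins and kinases was 0.60 (range 0.45 to 0.86), against 0.31 (0.11 to 0.62) among licensing and fork members, on log2(FPKM + 1). The closest pair was Ccna2 with Ccnb2 at 0.86, followed by Aurkb with Nusap1 and Ccnb2 with Cenpe at 0.80 each. Each member was also set against the count of the other 39. Ccnb2 (0.80), Ccna2 (0.79), Stmn1 (0.77) and Nusap1 (0.76) led, and Mcm6 (0.36), Mcm4 (0.39) and Hmgb2 (0.40) came last. These values describe cells that share a pool and a number of genes detected.

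**Figure D4:**
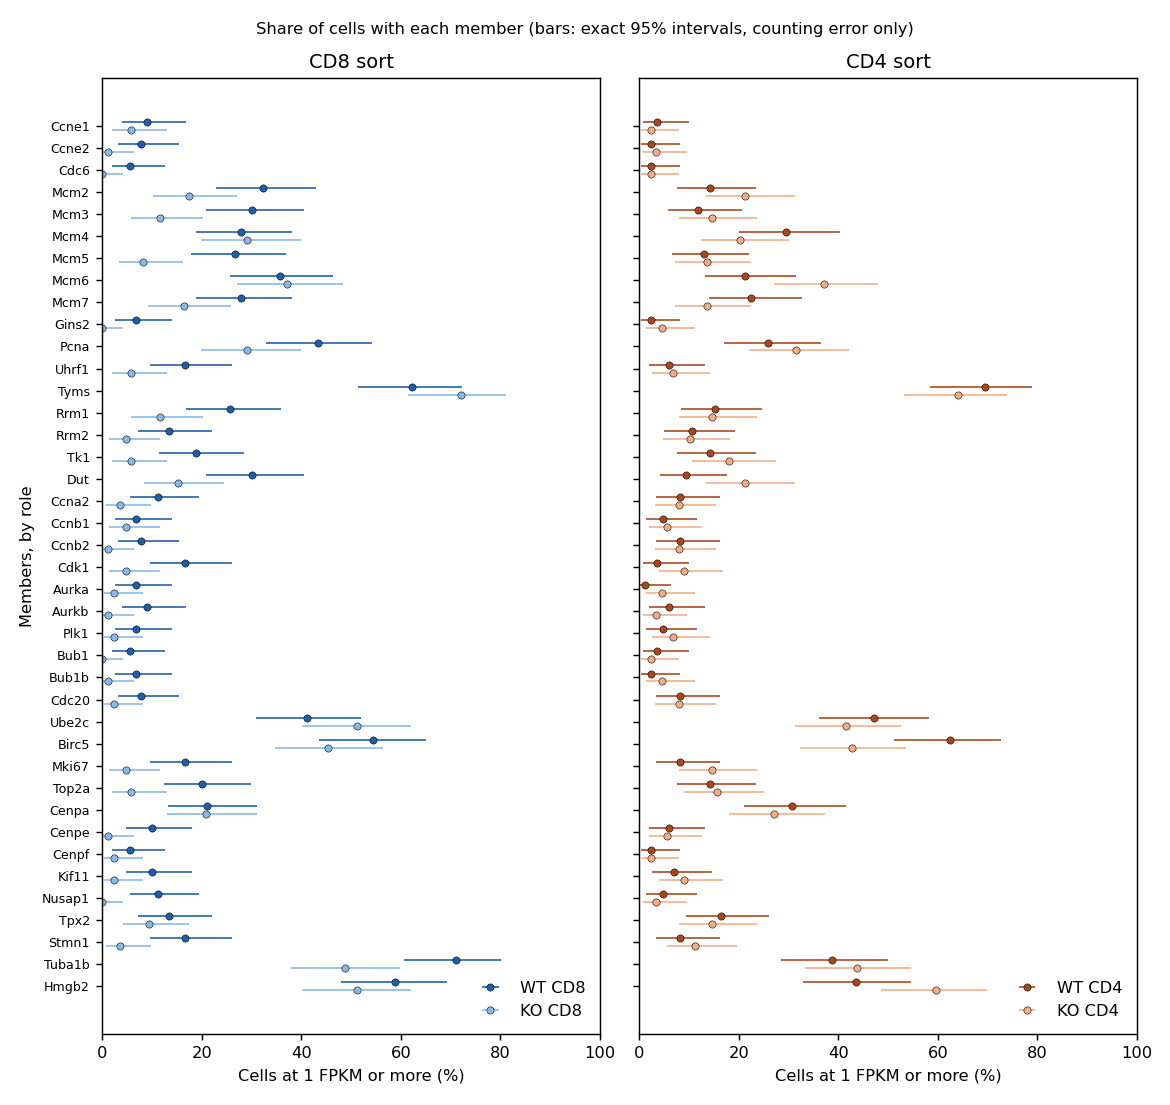
Points give the percentage of cells with each member at 1 FPKM or more in the CD8 sort (left) and the CD4 sort (right), dark for WT and light for KO, with exact 95% intervals for counting error. Tyms, Ube2c, Birc5, Tuba1b and Hmgb2 stand to the right in all groups, and in the CD8 sort most dark points lie to the right of the light ones, with Tyms, Ube2c, Mcm4 and Mcm6 the other way.

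Pdcd1, Tcf7 and Foxp3 were read beside the members as marks of T cell state. Pdcd1 encodes the inhibitory receptor PD-1, present on activated and exhausted T cells, and Tcf7 encodes TCF-1, a factor of naive, memory and stem-like T cells. In WT CD8, Pdcd1 was detected in 16 of 21 cycling cells (76.2%, 52.8% to 91.8%) and 20 of 69 others (29%, 18.7% to 41.2%). All 3 cycling KO CD8 cells held it, against 20 of 83 others (24.1%, 15.4% to 34.7%). Tcf7 ran the other way, in 1 of 21 cycling WT CD8 cells (4.76%, 0.12% to 23.8%) and 46 of 69 others (66.7%, 54.3% to 77.6%). In KO CD8 it was in 0 of 3 and 56 of 83. Of the 10 WT CD8 cells with 15 or more members, 9 held Pdcd1 and 0 held Tcf7, which allows a share of up to 30%. Among WT CD8 cells with at least 2500 genes Pdcd1 was in 16 of 18 cycling and 7 of 9 other cells, so the difference was small there, whereas Tcf7 was in 0 of 18 (allowing up to 16.7%) and 5 of 9.

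Read from the side of the receptor, the share that cycled was highest in CD8 cells with Pdcd1 and without Tcf7. In WT CD8 it was 16 of 26 such cells (61.5%, 40.6% to 79.8%), and in KO CD8 it was 3 of 16 (18.8%, 4.05% to 45.6%). With Tcf7 and without Pdcd1, 1 of 37 WT and 0 of 49 KO cells cycled, the latter allowing up to 6.12%. None of the CD8 cells with both, 10 in WT and 7 in KO, reached 10 members, which allows up to 30% and 42.9%. The lower number of cycling cells in KO CD8 was thus seen also within cells with Pdcd1, 3 of 23 (13%, 2.78% to 33.6%) against 16 of 36 (44.4%, 27.9% to 61.9%), with intervals that overlap. Cells with Pdcd1 were not alike in the number of genes, as 23 of the WT and 4 of the KO ones had at least 2500. Among these, 16 of 23 WT (69.6%, 47.1% to 86.8%) and 1 of 4 KO cells (25%, 0.631% to 80.6%) cycled. What part the number of genes has in this was not tested.

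In the CD4 sort, Foxp3, which defines regulatory T cells, was detected in 7 of 10 cycling WT cells (70%, 34.8% to 93.3%) and 39 of 75 others (52%, 40.2% to 63.7%). In KO CD4 it was in 7 of 11 (63.6%, 30.8% to 89.1%) and 28 of 78 (35.9%, 25.3% to 47.6%). Of the 13 CD4 cells with 15 or more members 11 held Foxp3. Among CD4 cells with at least 2500 genes, however, Foxp3 was in 14 of 17 cycling and 9 of 10 other cells, so cells rich in genes held Foxp3 whether they cycled or not. Turned around, 7 of 46 WT and 7 of 35 KO cells with Foxp3 cycled, against 3 of 39 and 4 of 54 without it. Pdcd1 was in 6 of 10 and 6 of 11 cycling cells of WT and KO CD4, and in 27 of 75 and 27 of 78 others. Tcf7 was in 0 of 10 (allowing up to 30%) and 2 of 11 cycling cells and in 30 of 75 and 25 of 78 others. Among CD4 cells with at least 2500 genes Tcf7 was in 1 of 17 cycling and 1 of 10 other cells, so little difference was left there. Pdcd1 was in 11 of 17 and 4 of 10 of them. In the CD8 sort Foxp3 was found in 4 cells, all KO, 1 of them the cycling cell with the most melanoma transcripts.

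**Figure D5:**
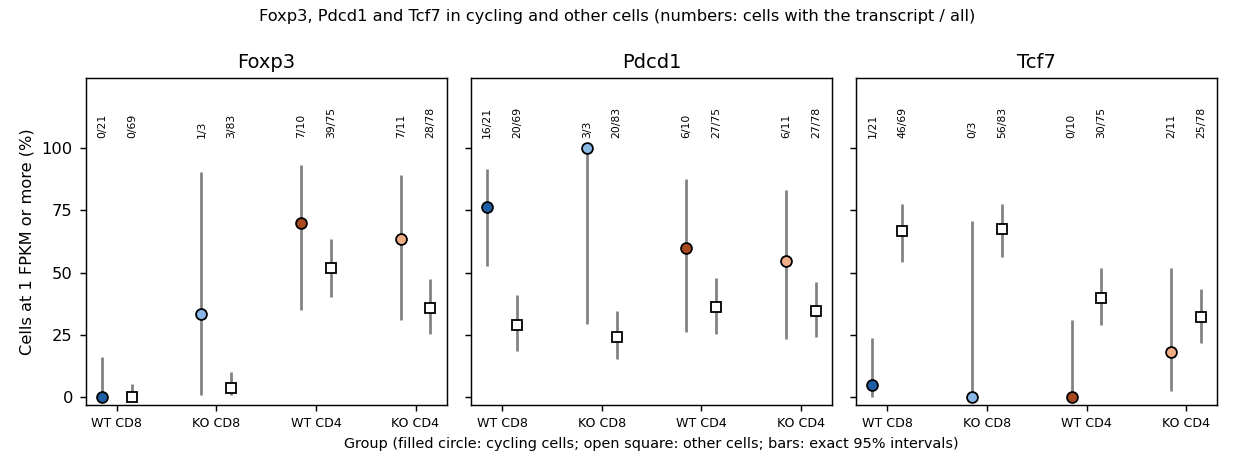
Percentages of cells with Foxp3, Pdcd1 and Tcf7 at 1 FPKM or more are given for cycling cells (filled circles) and other cells (open squares) of each group, with exact 95% intervals and the numbers of cells above. Tcf7 is lower and Pdcd1 higher in cycling than in other cells of every group, and in WT CD8 neither pair of intervals overlaps. The number of genes is left free here, and among CD4 cells with at least 2500 genes Tcf7 was in 1 of 17 cycling and 1 of 10 other cells.

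Between the CD8 groups the largest difference was that of Tuba1b, an alpha-tubulin gene, followed by the replication members Pcna, Mcm5 and Mcm3. Tuba1b was detected in 71.1% of WT cells (median 493.0 FPKM where detected, highest 9946) and in 48.8% of KO cells (median 438.7, highest 2480). Pcna was detected in 39 of 90 WT cells (median 207.6 FPKM where detected, highest 916.8) and 25 of 86 KO cells (median 42.7, highest 716.2). Mcm5 was in 24 WT cells (median 202.5, highest 973.2) and 7 KO cells (median 66, highest 213.1). For Mcm3 the numbers were 27 WT (median 220.7, highest 1037) and 10 KO (median 155.1, highest 324.5). Most mitotic members were rare in both groups. Nusap1, Bub1, Gins2 and Cdc6 were in 10, 5, 6 and 5 WT cells and in 0 KO cells each, which allows up to 3.49%. Mki67 was in 16.7% of WT (interval 9.64% to 26%) and in 4.65% of KO CD8 cells (1.28% to 11.5%). Values of WT and KO cells overlapped for every member, since each was under 1 FPKM in some cells of both groups.

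Expressed as KO minus WT of the mean log2(FPKM + 1), 26 of the 27 members detected in at least 10% of either group's cells were lower in KO CD8, where 77.3% of all 7481 such genes were lower. Lower by 1 or more were 7 members (8.49% of all genes): Tuba1b (-2.44), Pcna (-1.59), Mcm5 (-1.48), Mcm3 (-1.39), Mcm7 (-1.06), Stmn1 (-1.06) and Mcm2 (-1.03). Over all 40 members 39 were lower and 1, Mcm6, was higher, by 0.03. Medians were -0.76 over the 27 members and -0.30 over all measured genes. Several members passed the 10% limit through WT alone, such as Mcm5 (26.7% of WT and 8.14% of KO cells), Stmn1 (16.7% and 3.49%) and Ccna2 (11.1% and 3.49%). Their lower KO values follow in part from that limit and are no support for a direction. Without the limit the medians were -0.55 over the 40 members and 0.00 over all genes. By role the medians of measured members were -1.06 for the 3 broadly expressed genes, -1.04 for licensing and fork, -0.84 for nucleotide supply and -0.51 for the mitotic members. Over all members of a role, measured or not, licensing and fork had -0.61 and the mitotic members -0.37. The 6 MCM subunits did not move as a block: Mcm4 (-0.01) and Mcm6 (0.03) had nearly equal means in the CD8 groups while the other 4 were lower in KO. Without cells of 2500 or more genes Tuba1b was at -1.83, Mcm5 at -0.87, Pcna at -0.60, Mcm3 and Mcm2 at -0.57 each, Mcm7 at -0.15 and Stmn1 at 0.00. With a pseudocount of 10 in place of 1, Mcm5 (-0.90), Mcm3 (-0.82), Mcm7 (-0.68), Stmn1 (-0.65) and Mcm2 (-0.58) came under 1 in size. Without the cells rich in genes the members' median was -0.04, and in cells with 1500 to 2500 genes it was 0.05. Both limits take away most cycling cells, so that depth and cycling cannot be told apart here.

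In the CD4 sort the members showed no common direction. Of 21 measured members, 12 were higher and 9 lower in KO, with 63% of all 6629 measured genes higher, and the median was 0.05 against 0.14 for all genes. Higher by 1 or more were 2 members (5.81% of all genes), Mcm6 (1.23) and Hmgb2 (1.02). Mcm6 was detected in 18 WT cells, or 21.2% (interval 13.1% to 31.4%), and in 33 KO cells, or 37.1% (interval 27.1% to 48%), and Hmgb2 in 37 and 53. With a pseudocount of 10 Mcm6 was at 0.68 and Hmgb2 at 0.52, and in cells with 1500 to 2500 genes they were at 0.82 and 0.34. Lower by 1 or more were 0 members (0.603% of all genes). Mcm7 had the lowest difference, -0.78, with 19 WT and 12 KO cells. The mitotic members had equal numbers above and below 0, 10 each of 20. Of the 21 members measured in both sorts, 11 had a difference between KO and WT of opposite sign in CD8 and CD4 cells (57.7% of all genes), and 2 of these reached a size of 0.5 in both (9.36% of all genes).

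Set against each other within a genotype, CD4 cells had mostly lower values than CD8 cells in WT and mostly higher ones in KO, but both directions turned with the limit on genes per cell. The WT median was 0.11 in cells with at least 2000 genes, and the KO median was -0.11 at 1500 to 2500 genes and -0.18 without cells of 2500 or more genes. In WT, 25 of 27 measured members were lower in CD4 cells (80.4% of all measured genes) and 2 higher (19.6%), 7 were lower by 1 or more (14.9%) and 0 higher (1.04%), with a median of -0.41 against -0.36 for all genes. Tuba1b (-2.96), Pcna (-1.44), Dut (-1.27), Mcm2 (-1.24), Mcm3 (-1.22), Mcm6 (-1.09) and Hmgb2 (-1.04) were those 7. Some members passed the 10% limit in WT through CD8 alone, such as Dut (30% of CD8 and 9.41% of CD4 cells). This tilts the counts towards lower values in CD4. In KO, 16 of 21 were higher in CD4 cells (52.8% of all measured genes) and 5 lower (47.2%), 0 were higher by 1 or more (5.04%) and 0 lower (2.74%), with a median of 0.35 against 0.03. These comparisons share their groups with the ones between genotypes and add no evidence to them.

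Cell cycle genes outside the 40 were mostly lower in KO CD8 as well, as were 77.3% of all measured genes. Of 57 other replication genes 35 were measured in the CD8 sort and 33 of them were lower in KO, 3 by 1 or more, a share close to the 8.49% of all genes: Rpa2 (-1.45), a subunit of the protein that coats single-stranded DNA, Orc2 (-1.09) of the origin recognition complex and Rfc2 (-1.06) of the clamp loader. Of 69 other mitotic genes 24 were measured and 21 were lower, 0 of them by 1 or more, with Pttg1, securin, at -0.92. Higher by 1 or more was 1 of the 24 (0.361% of all genes), Cdc25b (1.21), a phosphatase that activates Cdk1. All 6 measured genes of a list of G1 cyclins, kinases and regulators were lower, among them the transcription factor gene Myc (-0.14). Lower by 1 or more were 2 of the 6 (8.49% of all genes), Cdk4 (-1.30) and Cdk6 (-1.14), partners of the D cyclins. Of 10 measured inhibitors and quiescence genes 7 were higher, where 22.7% of all genes were, among them Btg2 (1.09), an anti-proliferative factor, Cdkn1b (0.84), the inhibitor p27, and Rbl2 (0.52), the pocket protein p130. Lower were Cdkn2d (-0.67), the inhibitor p19, Cdkn1a (-0.60), the inhibitor p21, and Klf2 (-0.09). In KO CD4, 9 of 11 measured inhibitors were higher (63% of all genes) and 3 of them by 1 or more (5.81% of all genes), Rbl2 by 1.78, Btg2 by 1.76 and Cdkn1a by 1.02. Of 17 other mitotic genes measured there, 3 were higher by 1 or more (5.81% of all genes), Lmnb1 (1.23), Pttg1 (1.08) and Cdc25b (1.05).

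Genes beyond these lists that went with the member count were looked for among 7777 detected in at least 5% of cells. The count of other listed cycle genes followed the member count with r = 0.93 across 350 cells. The number of genes detected, itself at r = 0.76 with the member count, was left free in that value. Outside the lists the highest values belonged to the replication-dependent histone genes Hist2h3b (0.70) and Hist1h2ao (0.61), the cystine transporter gene Slc7a11 (0.63), the kinetochore gene Pmf1 (0.61) and the spindle gene Dlgap5 (0.58), followed by Psat1 (0.56), an enzyme of serine synthesis, Ankle1 (0.55), Tcf19 (0.54), Wdhd1 (0.54) and Nup62 (0.53). Hist2h3b was in 37.8% of cycling and 0.984% of other cells, and its reads may be shared with other copies of histone H3. The lowest were Malat1 (-0.35), Emb (-0.23), Tcf7 (-0.23), Wdr92 (-0.22) and S1pr1 (-0.22), the receptor with which T cells leave tissues, in 13.3% of cycling and 55.4% of other cells. With the number of genes detected held fixed, Hist2h3b remained at 0.63 and Slc7a11 at 0.47, while Psat1 came to 0.19, Malat1 to -0.07, S1pr1 to -0.08 and Tcf7 to -0.14. Emb, at -0.28, and Wdr92, at -0.21, did not shrink in this way. Pdcd1 had r = 0.24 before that step and -0.03 after it. In KO CD8, with 3 cycling cells, several of these genes had r near 0, among them Hist1h2ao (-0.09), Tcf19 (-0.11), Ankle1 (0.04) and Dlgap5 (0.06). The median over all ranked genes was 0.15 with the number of genes left free.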

How the data were processed

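Single cells were profiled by Smart-seq2, per the labels' protocols, with 21 cycles of cDNA amplification. The authors deposited a table of FPKM per gene and cell, with TMM scaling per the labels. The submitters' processing notes list Bowtie, RSEM and mm10, without versions. No read counts entered, and the only measure of depth was the number of genes detected. 4 columns with the word Population in their names were not used here.

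Detection was 1 FPKM, a kept cell had 1000 genes, and a cycling cell 10 members. Genes were measured in a comparison when detected in 10% of the cells of either group, differences are of mean log2(FPKM + 1), which understates changes of low genes, and called means 1 or more in size. A gene that passed in 1 group alone tends by that choice to be higher in that group. Cells of a pool are not replicates, so no p-value was computed. Intervals are exact Clopper-Pearson at 95%, and where a share of 0 is given with a limit, it is the one that 3 counts allow. No doublet caller was used. The members, lists and named genes (all members, 3 per list and direction, 10 per end of the correlation ranking) were chosen with earlier results of these data known. Scripts used Python 3.11.15 with numpy 2.4.6, pandas 2.3.3, scipy 1.17.1 and matplotlib 3.10.9, and the calculation of differences was tested on simulated data.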

Additional observations from a re-analysis of the deposited data

Results flagged for a closer look

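Members whose difference between KO and WT had opposite signs in the CD8 and the CD4 sort, and a size of at least 0.5 in both, were Dut and Hmgb2, 2 of the 21 members measured in both sorts, where 9.36% of the 6264 genes measured in both met the same limits. Dut, dUTPase, differed by -0.83 in CD8 and 0.87 in CD4 cells on the log2(FPKM + 1) scale, with 27 of 90 WT and 13 of 86 KO cells in the CD8 sort and 8 of 85 WT and 19 of 89 KO cells in the CD4 sort. Hmgb2 differed by -0.55 in CD8 and 1.02 in CD4 cells. Without cells of 2500 or more genes, an alternative added after seeing the data, the CD8 values were 0.14 for Dut and 0.30 for Hmgb2, so the opposite signs rest on cells rich in genes. The difference between the sorts was not tested, and 11 of the 21 members had opposite signs in the 2 sorts, as did 57.7% of all genes measured in both.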

How the results depend on the processing

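Each group is 1 pool, so no replicate could be left out. No paired analysis was possible because each group is 1 pool and all carry the same number. Shares of cycling cells kept within their intervals under 39 alternatives and moved outside under 17. In the order WT CD8, KO CD8, WT CD4 and KO CD4, at least 5 members gave 70%, 53.5%, 51.8% and 52.8%. At least 15 gave 11.1% in WT CD8, and at least 20 gave 10% in WT CD8 and 5.62% in KO CD4. Detection at 10 FPKM gave 13.3%, 5 of 20 mitotic members 11.1%, and 10 of 37 members without the broadly expressed ones 14.4%, all in WT CD8. A minimum of 2000 genes gave 33.9% for WT CD8, 36% for WT CD4 and 29.7% for KO CD4, and cells with 1500 to 2500 genes gave 3.45%, 2.44% and 3.28% there. Without cells with 2 markers of another cell type the KO CD8 share was 0 of 61, which allows up to 4.92%. KO CD8 was the lowest of the groups in each setting but those at 5 members and at 1500 to 2500 genes.

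The members' median difference moved as follows. For KO minus WT in CD8 it was -1.14 with a pseudocount of 0.1, 0.05 in cells with 1500 to 2500 genes and -0.04 without cells of 2500 or more genes. In CD4 it was -0.21 from 2000 genes, 0.00 with cells rescaled to 1 total and -0.05 without cells of 2500 or more genes. For CD4 minus CD8 in WT it was -0.68 with a gene filter of 20%, 0.11 from 2000 genes and -0.03 at 1500 to 2500 genes. In KO it was 0.75 from 2000 genes, -0.11 at 1500 to 2500 genes, 0.64 without cells with 2 other markers and -0.18 without cells of 2500 or more genes.

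Pdcd1 in cycling WT CD8 cells was 50.8% at 5 members, 92.9% with detection at 5 FPKM and 0 of 2 cells at 1500 to 2500 genes. Tcf7 there was 38.1%, 0% and 50% (1 of 2 cells) in these settings, and 0% at 15 members, without cells with 2 other markers and without cells with a melanoma marker. Foxp3 at 1500 to 2500 genes was 0 of 1 cycling WT CD4 and 0 of 2 KO CD4 cells. For single genes 97 values were as before, 25 weaker, 12 moved, and 1 reversed, Mcm7 in CD8 at 0.02 with 1500 to 2500 genes. Alternatives with 2500 genes, with melanoma markers and without Tyms, Ube2c and Birc5 were added after seeing the data. The causes were not tested.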
